A study of Mus musculus with 16 samples.

Results

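Messenger RNA of 10 transcription factor genes was compared in sorted brain endothelial cells (bECs) after transient middle cerebral artery occlusion (MCAo). They were the Krüppel-like factor genes Klf2, Klf4, Klf6 and Klf10, the AP-1 genes Fos, Fosb, Jun and Junb, and the genes Egr1 and Atf3. They were found by symbol as 10 of the 37003 genes in the count table, and all 10 were among the 31085 genes that passed the filter on low counts. The 16 libraries fell into 4 groups of 4, namely sham and MCAo in each of the genotypes CTRL and YT-iKO. Each library came from a pool of several adult mice of either sex, so the pool was the replicate, and the sex composition of a pool was not given. Mice of both genotypes carried Yap fl/fl and Taz fl/fl alleles and received tamoxifen before surgery. YT-iKO mice also carried the Pdgfb-iCreER-eGFP transgene, in which the Pdgfb promoter drives a Cre recombinase that tamoxifen activates, and CTRL littermates lacked it. The artery was closed for 30 minutes or a sham operation was done, and RNA was taken 72 hours later from cells sorted as DAPI-, CD45- and CD31+. Tissue was dissociated with enzymes before the sort. In such bulk libraries, fewer cells that express a gene and less RNA per cell cannot be told apart.

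Gene positions were taken from GENCODE M21 on GRCm38. Klf2 (ENSMUSG00000055148) lies at chr8:72319033-72321656 on the plus strand, Klf4 (ENSMUSG00000003032) at chr4:55527143-55532466 on the minus strand, Klf6 (ENSMUSG00000000078) at chr13:5861482-5870394 on the plus strand and Klf10 (ENSMUSG00000037465) at chr15:38291463-38300706 on the minus strand. Fos (ENSMUSG00000021250) lies at chr12:85473890-85477273 on the plus strand, Fosb (ENSMUSG00000003545) at chr7:19302696-19310051, Jun (ENSMUSG00000052684) at chr4:95049034-95052222 and Junb (ENSMUSG00000052837) at chr8:84974484-84978718, these 3 on the minus strand. Egr1 (ENSMUSG00000038418) lies at chr18:34859823-34864984 on the plus strand and Atf3 (ENSMUSG00000026628) at chr1:191170296-191218039 on the minus strand. All 10 are protein-coding, and the counts are of reads on their exons. Exons of Jun share 232 bases with the antisense gene Junos and exons of Junb 173 bases with Prdx2 on the other strand, and how strand was handled in counting is not given in the sources used here, so reads there cannot be told apart.

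Laminar blood flow is known to raise KLF2 and KLF4 in endothelium through the kinases MEK5 and ERK5 and MEF2 factors, and both proteins keep vessels anticoagulant and quiescent. FOS, FOSB, JUN and JUNB form the dimers of AP-1, and their genes, like Egr1 and Atf3, belong to the immediate early genes, which cells transcribe within minutes of a growth factor, stretch, injury or stress signal without making new protein first. Because their transcripts appear and decay quickly, such genes can also respond to the dissociation of a tissue. YAP and TAZ act with TEAD factors on DNA and share many target genes with AP-1.

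RefSeq promoter windows on GRCm38.p6 ran from 250 bases before to 50 bases after the start. They were used for 8 of the 10 genes, all but Klf10 and Egr1. They were searched on both strands for the AP-1 element TGACTCA (found in 5.2% of all 32851 windows of up to 300 bases), the cAMP response element (CRE) TGACGTCA (1.79%), its core TGACG, which every full CRE also holds (20.8%), the TEAD element GGAATG (14.7%), the KLF element CCACNCCC (17.6%), the EGR element GCGTGGGCG (0.612%), the serum response factor's CArG box (1.63%) and the MEF2 box (3.19%). A MEF2 box stood in the windows of Klf2, Jun and Atf3, with its first base 118, 33 and 22 bases before the start. A CRE core stood in those of Klf2 (241 bases before the start), Klf4 (232), Fos (129 and 66), Fosb (60), Junb (106) and Atf3 (7). No match to the other motifs was found in the 8 windows, and that of Klf6 held none at all. The 3 windows with a MEF2 box and the windows of Fos and Junb, whose differences between MCAo and sham were among the largest of the 10, are printed here 5′ to 3′ on the strand of the gene, from 250 bases before the start up to the start, or up to the nearest annotated exon in the window where one begins sooner, with MEF2 boxes and CRE cores in capitals. The printed stretch of Klf2 therefore ends 30 bases and that of Atf3 8 bases before the start, so the CRE core of Atf3 is not among the letters shown. They are chr8:72318812-72319032 for Klf2 (plus strand), chr4:95052223-95052472 for Jun (minus), chr1:191183341-191183583 for Atf3 (minus, at a start inside the annotated gene), chr12:85473640-85473889 for Fos (plus) and chr8:84978749-84978998 for Junb (minus).
Klf2: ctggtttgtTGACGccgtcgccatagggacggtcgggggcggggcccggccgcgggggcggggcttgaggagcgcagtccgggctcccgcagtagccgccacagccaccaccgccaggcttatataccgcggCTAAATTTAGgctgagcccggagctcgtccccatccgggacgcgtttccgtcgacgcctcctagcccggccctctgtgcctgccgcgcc
Jun: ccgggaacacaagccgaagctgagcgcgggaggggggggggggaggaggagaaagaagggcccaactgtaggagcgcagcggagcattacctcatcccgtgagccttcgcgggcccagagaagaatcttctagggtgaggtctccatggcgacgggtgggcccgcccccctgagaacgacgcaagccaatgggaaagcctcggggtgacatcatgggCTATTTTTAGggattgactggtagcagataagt
Atf3: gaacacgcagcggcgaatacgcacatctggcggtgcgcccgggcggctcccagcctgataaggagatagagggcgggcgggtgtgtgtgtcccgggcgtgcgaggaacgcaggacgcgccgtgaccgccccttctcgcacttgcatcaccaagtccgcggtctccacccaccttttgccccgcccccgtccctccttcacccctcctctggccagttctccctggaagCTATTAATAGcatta
Fos: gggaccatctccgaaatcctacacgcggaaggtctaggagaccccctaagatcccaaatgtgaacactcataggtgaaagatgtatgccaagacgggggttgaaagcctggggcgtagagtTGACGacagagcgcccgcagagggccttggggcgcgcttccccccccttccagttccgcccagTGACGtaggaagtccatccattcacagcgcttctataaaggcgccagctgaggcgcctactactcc
Junb: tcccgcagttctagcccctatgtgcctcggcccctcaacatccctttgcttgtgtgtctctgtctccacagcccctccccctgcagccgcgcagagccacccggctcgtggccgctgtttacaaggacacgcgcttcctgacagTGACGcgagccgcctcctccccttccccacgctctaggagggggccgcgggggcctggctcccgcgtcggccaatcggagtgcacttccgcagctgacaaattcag

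**Figure D1:**
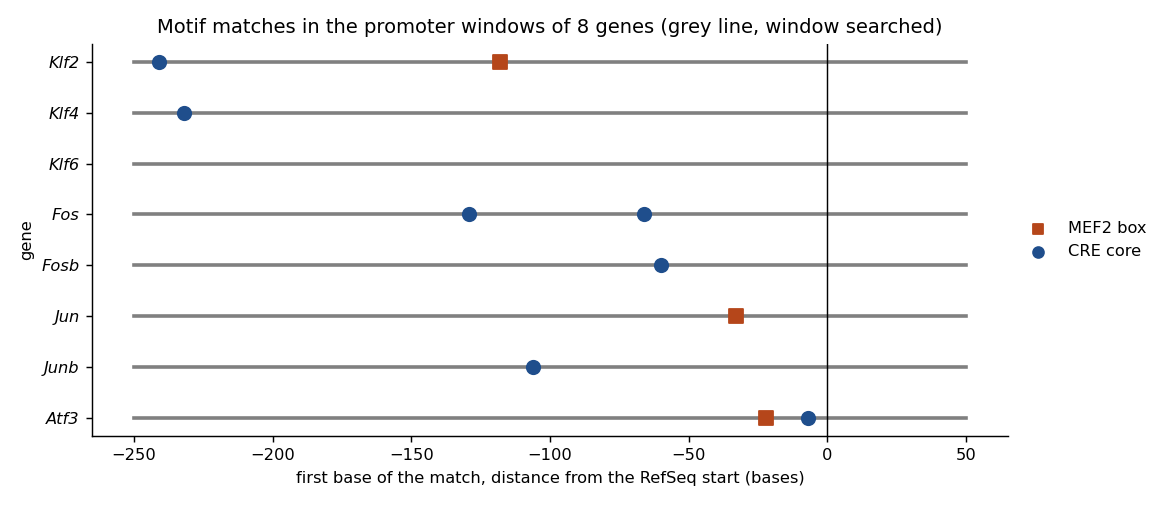
Matches of the MEF2 box (squares) and the CRE core (circles) along the RefSeq promoter windows of 8 genes, by distance in bases from the start (vertical line). MEF2 boxes lie 118, 33 and 22 bases before the start of Klf2, Jun and Atf3, and the window of Klf6 holds neither motif.

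The libraries held 11418262 to 23074547 counts on genes, and each of the 10 genes had 114 counts or more in every library. Levels are given in CPM, each gene's count scaled to the size of its library and by edgeR's TMM factors. Summed over 8 endothelial markers, libraries held 8592 to 18706 CPM, against 435.5 to 1232 CPM for 9 markers of pericytes and smooth muscle, 62.1 to 112.8 for 6 of astrocytes, 20.6 to 44.4 for 8 of microglia and macrophages and 1.06 to 10.2 for 5 of monocytes and neutrophils. Yap1 had 111.8 ± 0.511 CPM (SD, n = 4) in CTRL sham and 49.3 ± 9.70 in YT-iKO sham, and Wwtr1, which encodes TAZ, 264.7 ± 9.66 and 72.1 ± 20.9, so the libraries followed their genotype labels. Some libraries stood apart. Olfactory, vomeronasal and taste receptor genes took 0.0161% to 0.301% of counts, and the libraries with replicate number 1 held the highest level of Fos, Fosb, Junb and Egr1 in 4 of 4 groups and of Klf2, Klf4, Klf6, Jun and Atf3 in 3 of 4. Values without those 4 libraries are therefore also given.

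After sham surgery in CTRL mice, Klf2 was the most abundant of the 10 transcripts per length. Dividing CPM by the kilobases of annotated exon, Klf2 had 274.9 ± 40.8 CPM per kb (SD, n = 4) and Klf4 124.2 ± 23.4, followed by Jun with 72.4 and Klf6 with 52.4. Junb had 16.3 CPM per kb, Klf10 15.8, Fos 10.4, Egr1 5.85, Atf3 5.43 and Fosb 2.75. In this order Klf2 and Klf4, Klf4 and Jun, and Klf6 and Junb had library ranges that did not overlap, whereas all other neighbours overlapped. In CTRL MCAo the order was Klf2 (244.9), Klf4 (95.3), Jun (94.8), Junb (50.5), Fos (47.1), Klf6 (40.4), Klf10 (21.8), Fosb (13.4), Atf3 (8.93) and Egr1 (6.71 CPM per kb), and of the neighbours Klf2 and Klf4 alone did not overlap. The same held in YT-iKO sham, where Klf2 had 246.7 CPM per kb, Klf4 128.1 and Jun 91.1. In YT-iKO MCAo all neighbours overlapped, and Jun (132.1 CPM per kb) stood between Klf2 (268.9) and Klf4 (122.2).

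None of the 10 genes passed the threshold of edgeR's quasi-likelihood test, a Benjamini-Hochberg adjusted p under 0.1 over all 31085 genes, in any of the 5 comparisons. In the same fit 0.216% of all genes were called for MCAo against sham in CTRL, 0.318% in YT-iKO, 0.0965% for YT-iKO against CTRL after sham, 0.0708% after MCAo and 0.0% for the difference between the MCAo responses. At an unadjusted p under 0.05 stood 3 of the 10 genes in CTRL (Fos, Fosb and Junb), 4 in YT-iKO (the same 3 and Atf3), 1 after sham (Egr1) and 0 in the other comparisons, against 1089, 937, 670, 464 and 116 of all genes tested. The fitted differences were nonetheless large for several genes, as their values in each library show.

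**Figure D2:**
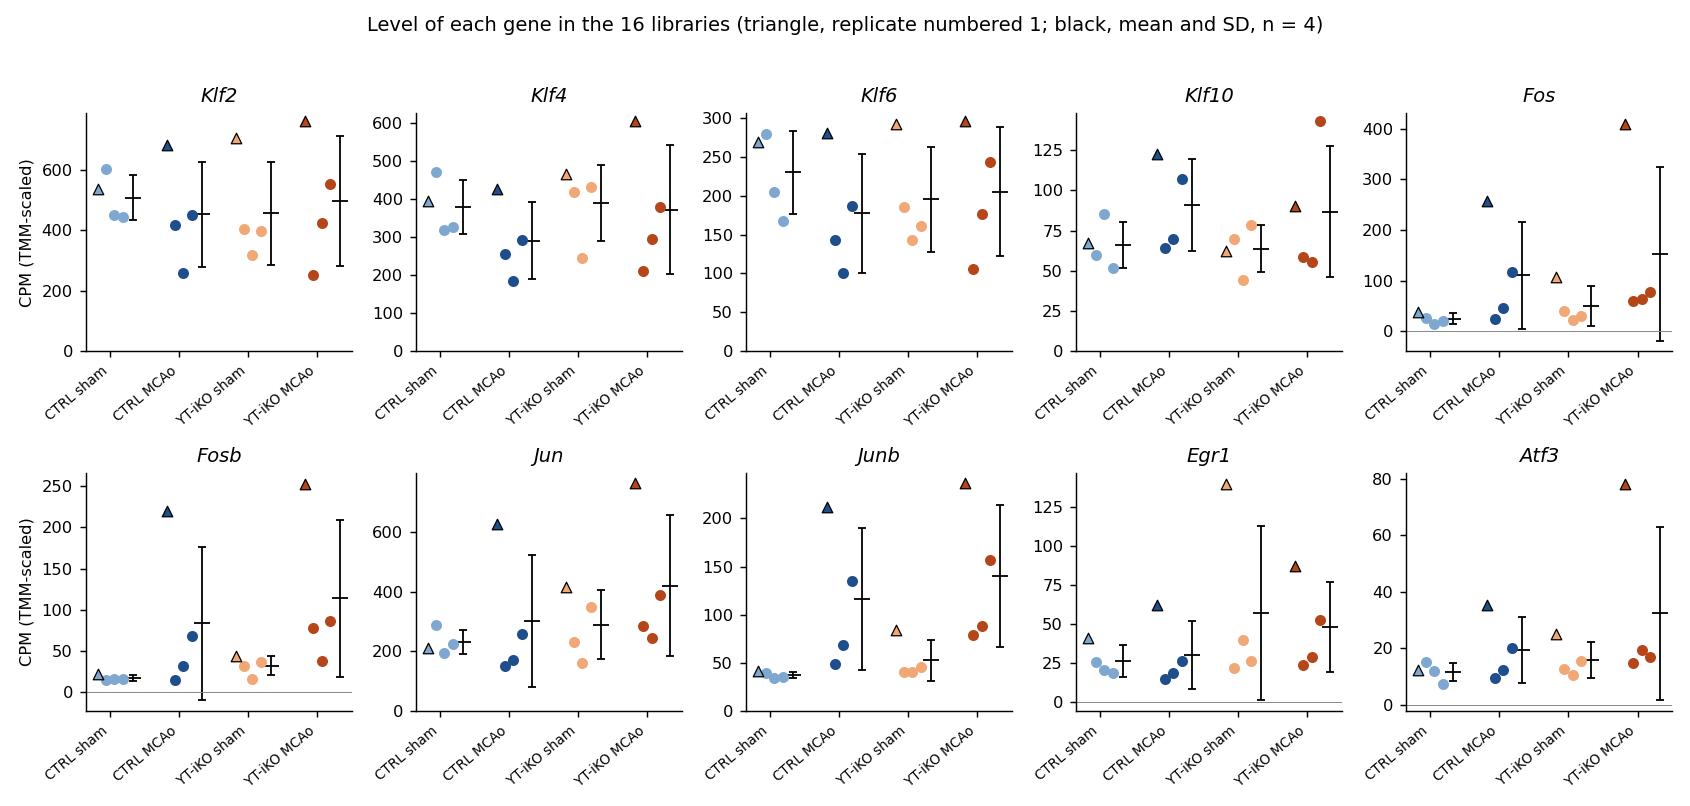
Level of each of the 10 genes in every library, in CPM scaled by TMM factors, by group (triangles, replicate number 1; circles, the others; black, mean and SD, n = 4). Junb in CTRL MCAo libraries (48.4 to 211.9 CPM) lies above all CTRL sham libraries (34.4 to 41.3 CPM), and the triangle is the highest point of its group in most panels.

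Junb, Fosb and Fos had the largest differences between MCAo and sham of the 10 genes in both genotypes. Junb encodes an AP-1 subunit that pairs with FOS proteins and is a weaker activator than JUN. In replicates 1 to 4 it had 41.3, 39.4, 34.4 and 34.8 CPM in CTRL sham and 211.9, 48.4, 68.8 and 135.3 CPM in CTRL MCAo. All 4 MCAo libraries were above all 4 sham libraries. The group means were 37.5 ± 3.43 and 116.1 ± 73.9 CPM, a log2 fold change of 1.63 (standard error 0.39, 95% interval 0.82 to 2.45) with an adjusted p of 0.142 by edgeR, and permuting the libraries exactly (two-sided, on log2(CPM + 1)) gave p = 0.0286, the smallest that 4 libraries against 4 allow. In YT-iKO, Junb had 84.0, 40.01, 40.6 and 45.3 CPM after sham and 237.0, 78.6, 88.3 and 156.7 CPM after MCAo. The groups overlapped only by sham replicate 1, which lay above MCAo replicate 2. The log2 fold change was 1.42 (standard error 0.39, 95% interval 0.61 to 2.22, edgeR adjusted p = 0.271, exact permutation p = 0.0571). Groups that did not overlap were found for 4.14% of all genes in CTRL and for 1.28% in YT-iKO, and among the 10 genes for Junb in CTRL alone.

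Fosb encodes a FOS family partner of the JUN proteins. It had 22.6, 14.3, 16.2 and 15.5 CPM in CTRL sham and 219.3, 14.7, 32.1 and 68.1 CPM in CTRL MCAo. MCAo replicate 1 was by far the highest, and MCAo replicate 2 lay within the sham range. The means of 17.1 ± 3.72 and 83.5 ± 93.2 CPM gave a log2 fold change of 2.28 (standard error 0.61, 95% interval 1.03 to 3.54, edgeR adjusted p = 0.240, exact permutation p = 0.114), which was 1.20 without MCAo replicate 1. In YT-iKO, Fosb had 44.3, 31.7, 16.6 and 36.7 CPM after sham and 252.9, 77.4, 37.5 and 86.9 CPM after MCAo, and MCAo replicate 3 alone was within the sham range. The log2 fold change was 1.81 (standard error 0.59, 95% interval 0.59 to 3.04, edgeR adjusted p = 0.597, exact permutation p = 0.0571), and 0.96 without MCAo replicate 1.

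Fos, the founding member of its family and a common marker of recent cell activation, had 38.5, 25.8, 14.2 and 19.4 CPM in CTRL sham and 257.7, 23.01, 44.8 and 117.4 CPM in CTRL MCAo. As with Fosb, MCAo replicate 2 was within the sham range and the other 3 above it. The log2 fold change of 2.18 had a standard error of 0.68 and a 95% interval of 0.77 to 3.58 (edgeR adjusted p = 0.577, exact permutation p = 0.0857), and it was 1.38 without MCAo replicate 1. YT-iKO libraries had 107.1, 39.3, 22.5 and 30.2 CPM after sham and 409.6, 59.1, 64.4 and 77.5 CPM after MCAo. Replicate 1 was the highest in both groups, and sham replicate 1 lay above MCAo replicates 2 to 4. This is a log2 fold change of 1.62 (standard error 0.66, 95% interval 0.24 to 2.99, edgeR adjusted p = 1.0, exact permutation p = 0.143), which rested largely on MCAo replicate 1: without that library it was 0.36.

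Jun, whose protein is the main activating partner in AP-1, was less different. It had 213.0, 290.3, 196.0 and 224.5 CPM in CTRL sham and 628.5, 151.7, 172.1 and 256.9 CPM in CTRL MCAo. MCAo replicate 1 was above all sham libraries and MCAo replicates 2 and 3 were below them, and the log2 fold change was 0.39 (95% interval -0.46 to 1.23, exact permutation p = 0.857). The YT-iKO libraries had 417.6, 232.6, 161.9 and 349.7 CPM after sham and 765.3, 284.3, 245.8 and 389.4 CPM after MCAo, with a log2 fold change of 0.54 (95% interval -0.31 to 1.38, exact permutation p = 0.371). Only MCAo replicate 1 was above the sham range there, and without it the value was -0.0073.

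The make-up of the summed level of the 4 AP-1 genes was compared as well, which was not among the planned tests. It restates the levels above, where Jun differed less between MCAo and sham than Junb, Fos and Fosb. No such shares were computed for other genes, so the overlaps given here have no background beside them. Over the sum of CPM per kb of Jun, Junb, Fos and Fosb within each library, which does not depend on the scaling between libraries, Jun held 71.0% ± 4.97 (SD, n = 4) in CTRL sham and 48.6% ± 7.93 in CTRL MCAo. Its lowest share in CTRL sham, 63.8%, lay above its highest in CTRL MCAo, 58.9%. In YT-iKO the share of Jun was 65.4% ± 6.22 after sham and 50.4% ± 5.25 after MCAo, again without overlap (59.5% to 74.1% and 43.0% to 55.4%). Junb held 16.1% ± 1.56 in CTRL sham and 26.1% ± 3.51 in CTRL MCAo without overlap, and 16.8% ± 3.64 and 23.6% ± 4.58 in YT-iKO, where the ranges overlapped. Fos held 10.1% and 19.99% in CTRL and 14.03% and 19.8% in YT-iKO, and Fosb 2.74% and 5.30% in CTRL and 3.75% and 6.22% in YT-iKO. These shares sum to a fixed total, so the 4 are not independent of each other, and none of 16 exact permutation tests of them, 4 genes in 4 comparisons, passed after Benjamini-Hochberg adjustment. Jun in both genotypes and Junb in CTRL had the smallest p that 4 libraries against 4 allow (0.0286, two-sided, adjusted p = 0.152).

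**Figure D3:**
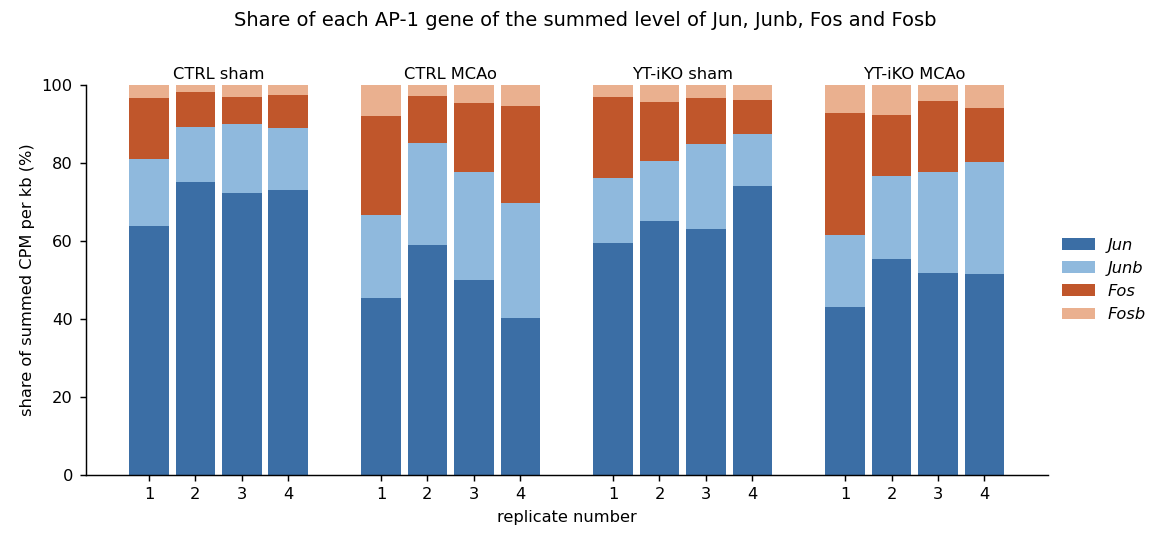
Share of Jun, Junb, Fos and Fosb in their summed CPM per kb (%) in each of the 16 libraries, with replicate numbers on the horizontal axis and groups above the bars. Jun takes 59.5% to 75.0% in the sham libraries and 40.2% to 58.9% in the MCAo libraries.

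Atf3, a stress-induced repressor that can bind with JUN proteins, had 12.2, 15.1, 12.05 and 7.41 CPM in CTRL sham and 35.4, 9.37, 12.2 and 19.95 CPM in CTRL MCAo. Replicates 1 and 4 were above the sham range and the others within it, and the log2 fold change was 0.72 (95% interval -0.24 to 1.68, exact permutation p = 0.229), and 0.29 without replicate 1. After sham in YT-iKO it had 24.97, 12.5, 10.4 and 15.6 CPM, and after MCAo 78.3, 14.8, 19.3 and 16.8 CPM. Its log2 fold change of 1.03 (standard error 0.46, 95% interval 0.07 to 1.98, edgeR adjusted p = 1.0, exact permutation p = 0.343) rested on MCAo replicate 1: without it the value was 0.03.

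Egr1, a zinc finger activator raised by growth factors and stretch, had 40.8, 25.5, 20.5 and 18.2 CPM in CTRL sham and 61.7, 14.3, 18.5 and 25.9 CPM in CTRL MCAo. MCAo replicate 1 lay above all sham libraries and MCAo replicate 2 below them (log2 fold change 0.20, 95% interval -0.89 to 1.29, exact permutation p = 0.914). Libraries of YT-iKO had 139.8, 21.8, 39.5 and 26.2 CPM after sham and 87.3, 23.2, 28.9 and 52.3 CPM after MCAo, and the highest library was a sham library. This gave a log2 fold change of -0.25 (95% interval -1.32 to 0.83, exact permutation p = 1.0).

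None of the Krüppel-like factors was called in the fit of all 4 groups, and the differences of Klf2, Klf4 and Klf6 lay between -0.38 and 0.12 on the log2 scale. Klf2 had 535.7, 601.5, 450.2 and 443.5 CPM in CTRL sham and 681.3, 418.2, 259.1 and 450.9 CPM in CTRL MCAo, and the sham range lay inside the MCAo range. Its log2 fold change was -0.17 (95% interval -0.84 to 0.51), which was -0.38 without MCAo replicate 1, -0.0043 without MCAo replicate 3 and -0.077 without sham replicate 2. In YT-iKO Klf2 had 703.8, 403.9, 319.2 and 395.9 CPM after sham and 760.4, 252.4, 422.5 and 551.2 CPM after MCAo, a log2 fold change of 0.12 (95% interval -0.55 to 0.80). Exact permutation tests gave p = 0.543 in CTRL and 0.8286 in YT-iKO.

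Klf4, which shares many endothelial targets with Klf2, had 395.2, 472.7, 318.5 and 328.3 CPM in CTRL sham and 427.3, 255.1, 186.4 and 293.9 CPM in CTRL MCAo. MCAo replicates 2, 3 and 4 were below all sham libraries and replicate 1 was not, and the log2 fold change was -0.38 (95% interval -1.02 to 0.26, exact permutation p = 0.171). It was -0.57 without MCAo replicate 1 and -0.25 without MCAo replicate 3. In YT-iKO Klf4 had 466.6, 419.0, 244.8 and 432.2 CPM after sham and 605.0, 211.0, 295.0 and 379.1 CPM after MCAo, a log2 fold change of -0.07 (95% interval -0.71 to 0.57, exact permutation p = 0.743). The YT-iKO sham range lay inside the MCAo range.

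Klf6, a widely expressed factor that injury of vessels is known to raise, had 268.5, 279.1, 205.1 and 167.2 CPM in CTRL sham and 279.6, 142.4, 100.5 and 186.3 CPM in CTRL MCAo. Its log2 fold change was -0.38 (95% interval -1.05 to 0.30, exact permutation p = 0.286), and MCAo replicate 1 exceeded every sham library. Without that library it was -0.63, and without MCAo replicate 3 it was -0.22. Without all 4 libraries numbered 1, Klf2 stood at -0.35 and Klf4 and Klf6 both at -0.55 in CTRL. In YT-iKO it had 292.0, 185.2, 142.8 and 160.5 CPM after sham and 295.8, 105.2, 176.6 and 242.7 CPM after MCAo, a log2 fold change of 0.07 (95% interval -0.60 to 0.75, exact permutation p = 0.943). The groups overlapped in both genotypes.

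Klf10, first known as a gene that TGF-β induces early, was the only one of the 4 Krüppel-like factors with a positive difference in both genotypes. It had 67.2, 60.1, 85.6 and 51.9 CPM in CTRL sham and 122.4, 64.1, 70.1 and 107.2 CPM in CTRL MCAo, a log2 fold change of 0.46 (95% interval -0.14 to 1.06, exact permutation p = 0.171). In YT-iKO it had 62.2, 70.1, 44.3 and 78.7 CPM after sham and 90.1, 58.5, 55.3 and 143.0 CPM after MCAo, a log2 fold change of 0.44 (95% interval -0.16 to 1.04, exact permutation p = 0.40), which was 0.081 without MCAo replicate 4 and 0.26 without sham replicate 3. Here 2 MCAo libraries of each genotype were above the sham range and the others within it.

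The exact permutation tests numbered 40, over 10 genes and 4 comparisons, and Junb in CTRL was the only one at the smallest p they allow, while the smallest p after Benjamini-Hochberg adjustment over them was 0.571. The median log2 fold change of the 10 genes was 0.42 in CTRL and 0.49 in YT-iKO, with 7 and 8 of 10 above 0. These counts leaned on single libraries. Without CTRL MCAo replicate 1, Jun (-0.20) and Egr1 (-0.37) also fell below 0 in CTRL. Without YT-iKO MCAo replicate 1, Klf2 (-0.24), Klf6 (-0.24) and Jun (-0.0073) also did so in YT-iKO. Over all genes tested the median was 0.07 and -0.02, and 57.1% and 47.6% were above 0. Over genes averaging 10 CPM or more, as all of the 10 did, the median was -0.09 in CTRL and 0.05 in YT-iKO. The 10 genes varied together between libraries, so the counts above 0 are not of independent genes.

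**Figure D4:**
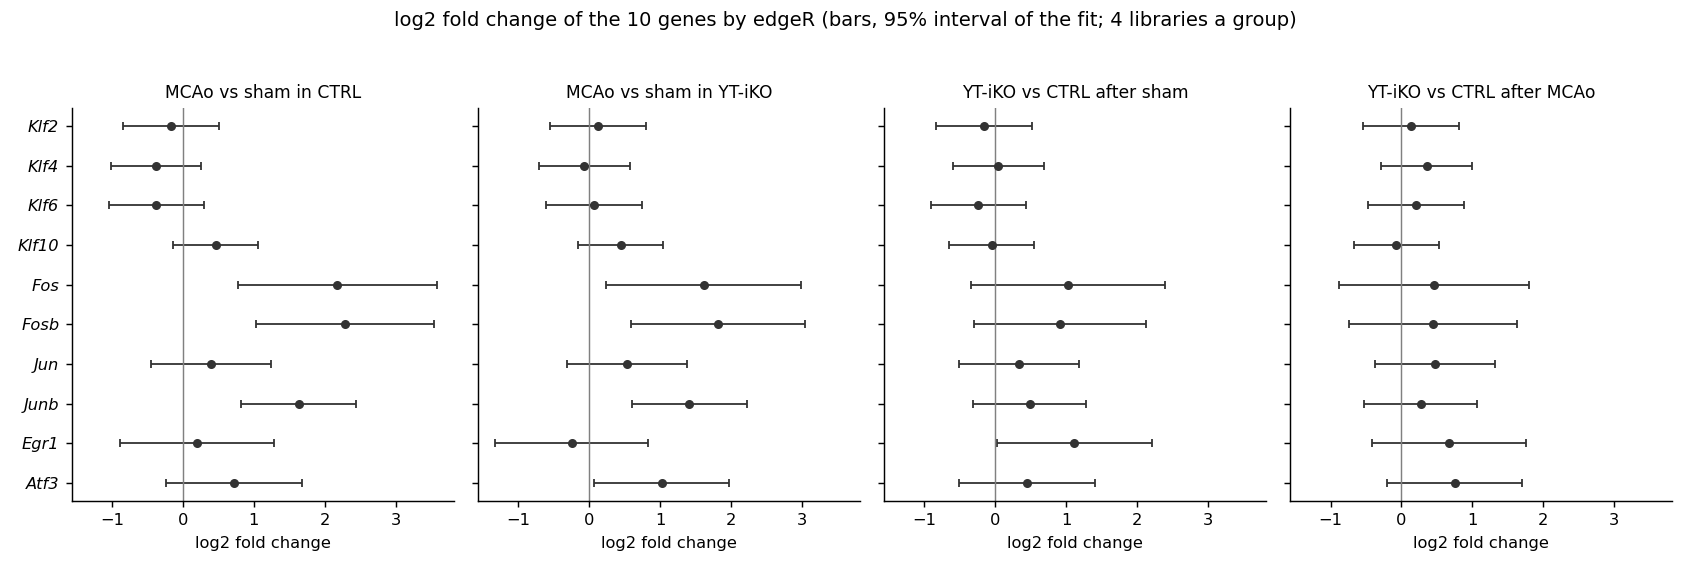
The log2 fold change of each of the 10 genes by edgeR in 4 comparisons (points) with the 95% interval of the fit (bars), 4 libraries a group. Intervals of Fos, Fosb and Junb lie above 0 for MCAo against sham in both genotypes, that of Atf3 in YT-iKO and that of Egr1 for genotype after sham, before adjustment for the number of genes.

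Between YT-iKO and CTRL, 0 of the 10 genes were called in the fit of all 4 groups. A fit of only the sham groups called Fosb higher in YT-iKO (0.94 on the log2 scale, edgeR adjusted p = 0.0634) with 0.506% of genes. In the fit of all groups after sham, the largest genotype differences were those of Egr1, with a log2 fold change of 1.12 (standard error 0.53, 95% interval 0.02 to 2.21, edgeR adjusted p = 0.990, exact permutation p = 0.286), Fos with 1.03 (95% interval -0.34 to 2.39) and Fosb with 0.91 (-0.30 to 2.13, exact permutation p = 0.0571). YT-iKO sham replicate 1 alone held 139.8 CPM of Egr1 against 21.8 to 39.5 CPM in the other 3, and without that library the difference was 0.16 (0.47 without all 4 libraries numbered 1). That of Fos was 0.35 without the same library. Fosb was above the CTRL sham maximum of 22.6 CPM in 3 of 4 YT-iKO sham libraries. Differences of the Krüppel-like factors after sham were between -0.24 (Klf6) and 0.04 (Klf4). Without YT-iKO sham replicate 1, Klf6 was at -0.48 and Klf2 at -0.42. Without YT-iKO sham replicate 3 they were at -0.11 and -0.015. After MCAo, Atf3 differed most between genotypes, by 0.75 (95% interval -0.20 to 1.70), then Egr1 by 0.67 (-0.41 to 1.76), and 9 of 10 genes were above 0, with a median of 0.40 against 0.03 over all genes. Without YT-iKO MCAo replicate 1, Egr1 (0.14) alone of the 10 stayed above 0. Fos was then at -0.76, Fosb at -0.35, Atf3 and Klf2 at -0.22, Klf10 at -0.19 and Junb at -0.18. Klf6 was at -0.095, Klf4 at -0.053 and Jun at -0.035, so the count above 0 rested on that library. Without CTRL MCAo replicate 1, Atf3 and Egr1 were at 1.15 and 1.20. With TMM factors from all genes none of the 10 had genotype groups without overlap, which 3.85% of all genes had after sham and 0.981% after MCAo.

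The MCAo response itself was compared between genotypes by the difference of the log2 fold changes, for which edgeR called 0 of the 10 genes and 0 of 31085, with 0 of the 10 and 116 of all genes at an unadjusted p under 0.05. DESeq2 also called 0. The difference was -0.56 for Fos (95% interval -2.47 to 1.34), -0.47 for Fosb (-2.17 to 1.23) and -0.21 for Junb (-1.34 to 0.91). It was 0.29 for Klf2 (-0.67 to 1.25), 0.31 for Klf4 (-0.59 to 1.22) and 0.45 for Klf6 (-0.51 to 1.40). At 4 libraries a group, intervals of this width hold sizeable differences in both directions. CTRL and YT-iKO were set against their own sham groups, so the responses share no libraries. They need not be independent, because libraries of the same replicate number tended to deviate together across groups. Over the 1000 genes most variable within groups, their median r was 0.259, against -0.13 for other pairs.

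Whether Junb, Fosb and Fos were called for MCAo depended on how the libraries were scaled and modelled, and each setting named next that called one of them also called more genes in all than the first fit. In CTRL, DESeq2 called Junb (adjusted p = 0.00176) and Fosb (0.0943) with 0.714% of all genes, and edgeR on genes above 1 CPM in at least 4 libraries called Junb (0.0786) with 0.474%. A fit of only the CTRL groups called Junb (0.00112), Fosb and Fos (both 0.0102) with 2.52% of genes, and a replicate block called Junb (0.0149), Fos (0.0254) and Fosb (0.0647) with 0.383%. With the receptor-gene share as a covariate, edgeR called Junb (3.3e-04), Fosb (0.00663), Fos (0.0303) and Klf10 (0.0594) with 2.61% of genes. In YT-iKO, Junb was called by DESeq2 (0.0129, with 0.859% of genes), with the replicate block (0.0117, 0.425%) and with the receptor-gene share (0.00758, 1.88%), which also called Fosb (0.0422). Junb was not called there with the filter on CPM (0.161), with RLE factors (0.232), without a filter on low counts (0.272) or in a fit of only the YT-iKO groups (0.535), and in CTRL not with RLE factors (0.106) or without a filter (0.106). The direction for Junb was the same in all of these.

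limma-voom with sample quality weights gave another picture of the Krüppel-like factors. It called 24.2% of all genes in CTRL and 18.1% in YT-iKO, and among them Klf4 as lower after MCAo in both (log2 fold change -0.61, adjusted p = 0.0254, and -0.56, adjusted p = 0.0814) and Klf6 as lower in CTRL (-0.72, adjusted p = 0.0251). Junb was called higher in both (0.75, adjusted p = 0.0354, and 0.80, adjusted p = 0.0684). With a share of called genes that large, these calls are near the background of the setting.

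The scale was also set by the 9132 abundant genes alone, those averaging 10 CPM or more, through their own TMM factors. On it, Junb was called for MCAo in CTRL (1.62 on the log2 scale, edgeR adjusted p = 0.00828) and in YT-iKO (1.32, adjusted p = 0.0295), and Fosb in CTRL (2.19, adjusted p = 0.0737), where 1.78% and 1.72% of all genes were called. Junb then spanned 31.4 to 38.6 CPM in CTRL sham and 56.4 to 164.5 in CTRL MCAo, and 37.1 to 75.8 CPM in YT-iKO sham and 106.0 to 208.4 in YT-iKO MCAo. Neither pair of groups overlapped, which held for 7.34% of all genes in CTRL and 3.18% in YT-iKO. Fosb did not overlap between YT-iKO sham (22.2 to 39.9 CPM) and YT-iKO MCAo (46.2 to 222.4) or between CTRL sham (13.4 to 21.1) and YT-iKO sham, against 4.49% of all genes for genotype after sham. Of the 10 genes, none separated the genotypes after MCAo, against 3.21% of all genes.

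Single libraries also decided calls. Leaving out 1 library at a time, Junb passed for MCAo in CTRL in 6 of 16 cases. Among them were the fits without CTRL MCAo replicate 2 (adjusted p = 0.0596, with 0.163% of all genes called) and without YT-iKO MCAo replicate 4 (0.0232, with 0.492%), and Fosb passed in those same 2 cases (0.0669 and 0.0542, all by edgeR). The others were without CTRL MCAo replicate 3 (0.279% of genes called), YT-iKO sham replicate 1 (0.27%), YT-iKO MCAo replicate 1 (0.355%) or YT-iKO MCAo replicate 2 (0.364% of genes). For MCAo in YT-iKO, Junb passed only without MCAo replicate 2 (adjusted p = 0.0689 by edgeR, with 0.642% of genes called). Without the 4 libraries numbered 1, an alternative chosen after seeing the data, the log2 fold change in CTRL was 1.27 for Junb (edgeR adjusted p = 0.475), 1.37 for Fosb and 1.68 for Fos, and in YT-iKO it was 1.26 for Junb (0.454), 1.15 for Fosb and 1.04 for Fos, with 0 genes of the 10 called. That of Jun in CTRL was then -0.24.

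The 10 genes varied widely between libraries of the same group. The SD of log2(CPM + 1) within groups was 1.15 for Fos, 1.04 for Fosb, 0.89 for Egr1 and 0.75 for Atf3, against a median of 0.33 over the 9132 abundant genes. These are the 99.9th, 99.8th, 99.5th and 99.1st percentiles, and the SDs of Jun and Junb stood at the 98.8th and 98.7th. Klf6, Klf2, Klf4 and Klf10 were at the 97.4th, 96.9th, 95.2nd and 93.6th percentiles. On the scale from abundant genes Fos stood at the 99.5th percentile and Klf10 at the 83.5th. From the lowest to the highest of the 16 libraries, Fos spanned 28.8-fold, Fosb 17.7-fold, Atf3 10.6-fold, Egr1 9.80-fold and Junb 6.90-fold, but Klf2 only 3.01-fold and Klf6 2.94-fold.

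Their deviations from the group means were correlated. As a description over the 16 libraries, which share depth and scaling, Pearson's r of the deviations had a median of 0.80 over the 45 pairs of the 10 genes, close to the 0.77 of all pairs of abundant genes. On the scale from abundant genes the median of all gene pairs was -0.0024, that of the 10 genes 0.67. There Fos, Fosb, Jun, Junb, Egr1 and Atf3 correlated with each other at 0.56 to 0.92 (median 0.82, 15 pairs) and Klf2, Klf4 and Klf6 at 0.74 to 0.93. Between these sets r was 0.32 to 0.78. Klf10 stood outside both, with -0.34 to -0.17 toward Klf2, Klf4 and Klf6 and -0.15 to 0.28 toward the immediate early genes. The values of the immediate early genes leaned on the libraries numbered 1. Over the other 12, with group means retaken, the median over the 45 pairs was 0.57, below the 0.78 of all pairs of abundant genes. On the scale from abundant genes it was 0.22, the 6 immediate early genes then correlated at -0.022 to 0.77 with each other (median 0.51), Klf2, Klf4 and Klf6 at 0.65 to 0.89, and r between the sets was -0.62 to 0.49 (median 0.066).

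**Figure D5:**
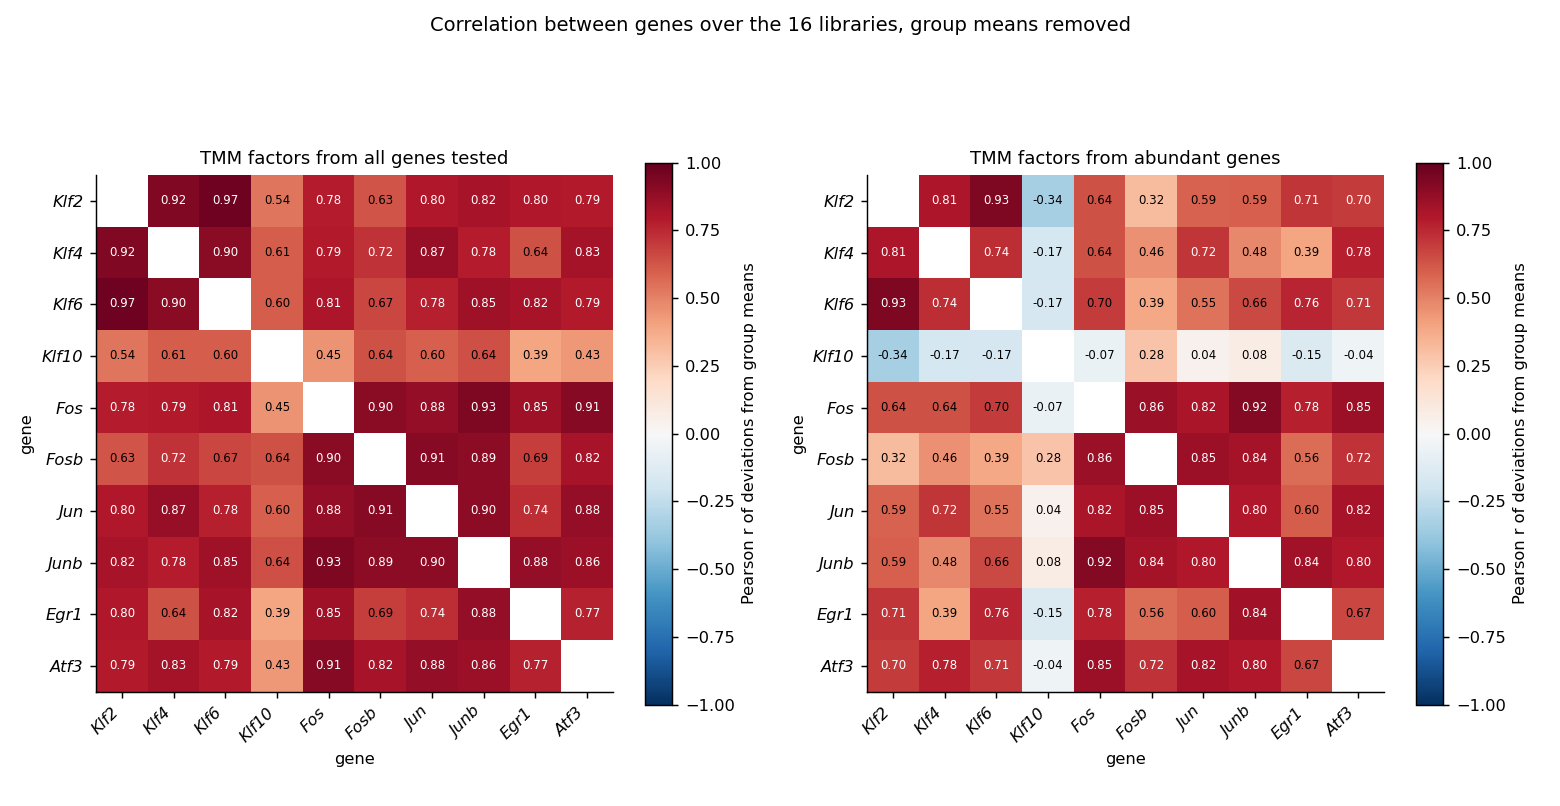
Pearson's r between the 10 genes over 16 libraries, of log2(CPM + 1) with group means removed, on the scale of all genes tested (left) and of abundant genes (right). On the right, the 6 immediate early genes correlate at 0.56 to 0.92 with each other and Klf10 at -0.34 to 0.28 with the other 9.

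The genes with the most similar levels over the 16 libraries, by Pearson's r of log2(CPM + 1) among the 9132 abundant genes and given as a description, included another of the 10 for 7 of them. For Klf2 they were Klf6 (0.96), the sphingosine-1-phosphate receptor gene S1pr1 (0.92) and Btg2 (0.92), for Klf4 Jag1 (0.91), Pak1ip1 (0.89) and Klf6 (0.88), and for Klf6 Klf2, Plk3 (0.94) and S1pr1 (0.94). For Fos they were Junb (0.94), Fosb (0.94) and Atf3 (0.91), for Fosb Gadd45g (0.95), Fos and Junb (0.93), and for Junb Fos, Fosb and Btg1 (0.93). Jun was most like Ppp1r15a (0.92), Ier2 (0.89) and Col18a1 (0.89), and Atf3 most like Ppp1r15a (0.96), Fos and Jun (0.89). Egr1 was most like Btg2 (0.88), Ier2 (0.88) and Apold1 (0.87). For Klf10 they were Ggact (0.93), Fxyd5 (0.92) and Tirap (0.92), none of which was on the list of any other of the 10. On the scale from abundant genes 19 of these 30 entries were named again. All 3 remained for Fosb, Egr1 and Atf3, 2 for Klf2, Klf6 and Fos, and 1 for Klf4 (Jag1), Klf10 (Ggact), Jun (Ppp1r15a) and Junb (Fos).

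Other measures moved with the libraries too. The receptor-gene share correlated with the level of all 10 genes negatively over the 16 libraries, from -0.30 for Atf3 to -0.79 for Klf10 (permutation p adjusted over the 10 genes 0.0015; Spearman's rho -0.73, adjusted p = 0.0068; Pearson's r -0.68 without the 2 libraries farthest from the median share). Abundant genes at large did so on this scale too: over the 9132 abundant genes the median r was -0.79, and 97.9% were below 0. The r of Klf10 stood at that median, and 76.2% to 95.4% of abundant genes had an r at or below those of the other 9. On the scale from abundant genes r lay between -0.35 and 0.0020, with no test made there. With the share as a covariate the log2 fold change for MCAo in CTRL was 1.59 for Junb, 2.09 for Fosb and 1.98 for Fos. Summed CPM of the pericyte and smooth muscle markers were 671.7 to 788.6 in CTRL sham and 476.2 to 1232 in CTRL MCAo, with none of the 9 at 0 in a library. Summed CPM of 12 heat shock genes known to respond to tissue dissociation were highest in replicate 1 in 1 of 4 groups, while the sum of the 6 immediate early genes was so in 3 of 4. The part of the marker and heat shock genes in the values of the 10 genes was not tested.

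Genes around the 10 were counted from lists chosen by function. Of 12 endothelial genes linked to KLF2 and KLF4, which include Nos3 and Thbd, 0 were called for MCAo in CTRL and 1 in YT-iKO, where 0.216% and 0.318% of all genes were called, with median log2 fold changes of 0.04 and 0.25 (0.07 and -0.02 over all genes). The call was for Gja4, the gene of the arterial gap junction protein connexin 37, which rose in YT-iKO from 10.03 ± 2.11 to 50.1 ± 39.8 CPM without overlap, as 1.28% of all genes did not overlap there (log2 fold change 2.32, standard error 0.42, adjusted p = 0.0158 by edgeR) and had 9.91 ± 1.24 and 18.6 ± 9.30 CPM in CTRL sham and MCAo. Of 12 genes of flow sensing and the route from MEK5 to MEF2, 10 other Krüppel-like factors, 10 other AP-1 subunits and 5 genes of the EGR and NAB families, 0 were called in any comparison, against 0.0% to 0.318% of all genes. Fosl2, which encodes a FOS-related subunit, had 110.8 ± 9.41 CPM in CTRL sham and 198.4 ± 82.3 in CTRL MCAo without overlap, which 4.14% of all genes showed (log2 fold change 0.84, edgeR adjusted p = 0.911). Klf11 had 80.0 ± 17.3 and 51.2 ± 11.2 CPM (log2 fold change -0.64, edgeR adjusted p = 1.0).

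Among 25 other immediate early genes, 3 were called higher after MCAo in CTRL, 5 in YT-iKO and 0 lower, beside 0.216% and 0.318% of all genes called in either direction, with medians of 0.35 and 0.28 (0.07 and -0.02 over all genes). Socs3, a feedback inhibitor of cytokine signalling, rose from 15.6 ± 1.84 to 83.6 ± 42.3 CPM in CTRL (log2 fold change 2.42, adjusted p = 0.00516) and from 6.45 ± 0.97 to 86.2 ± 54.98 CPM in YT-iKO (3.74, adjusted p = 1.9e-04), both by edgeR and without overlap (4.14% and 1.28% of all genes). Ptgs2, the gene of the inducible cyclooxygenase, rose from 32.7 ± 3.33 to 98.01 ± 49.3 CPM in CTRL (1.59, edgeR adjusted p = 0.0581) and from 32.2 ± 6.88 to 114.7 ± 54.8 CPM in YT-iKO (1.84, edgeR adjusted p = 0.0164). Dusp2, a phosphatase of MAP kinases, was called in CTRL (1.82, edgeR adjusted p = 0.0431). In YT-iKO edgeR called Zfp36l2 (1.59, adjusted p = 0.0150), Ier3 (1.46, adjusted p = 0.0832) and Btg1 (1.42, adjusted p = 0.0933, named after its values were seen). Each also had a higher mean after MCAo in the other genotype, without a call there. Dusp2 averaged 1.52 and 5.37 CPM in CTRL sham and MCAo, and 2.16 and 6.01 CPM in YT-iKO. In CTRL sham and MCAo, Zfp36l2 averaged 80.2 and 191.1 CPM, Ier3 34.7 and 81.9, and Btg1 46.6 and 89.0. Of 13 tested genes of the SRF, TCF and MAP kinase route and 8 genes of ATF3 partners and the integrated stress response, 0 were called for MCAo.

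Of the 12 heat shock genes, 0 were called for MCAo in either genotype, where 0.216% and 0.318% of all genes were. In CTRL 6 of the 12 were above 0 (median on the log2 scale -0.0095), and in YT-iKO all 12 were (median 0.28). The smallest p was that of Hspa1a, and Hspa1b, a nearly identical copy with which it can share reads, had the next smallest. Hspa1a, which encodes an inducible HSP70 protein, had 28.2 ± 11.2 CPM in CTRL sham and 110.4 ± 53.5 in CTRL MCAo without overlap, as for 4.14% of all genes (log2 fold change 1.97, edgeR adjusted p = 0.150), and Hspa1b a log2 fold change of 1.90. In YT-iKO Hspa1a had 33.2 ± 18.4 and 110.6 ± 73.3 CPM (1.73, edgeR adjusted p = 0.265).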

How the data were processed

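RNA of sorted bECs was amplified with a SMART-Seq kit and sequenced in 16 libraries. The authors mapped reads with STAR 2.7.8a to GRCm38 (both from the submitters' processing notes) with the annotation GENCODE M12, and they deposited a table of raw counts, whole numbers without normalization. The counting program and its handling of strand are not given in the sources used here. Every gene of the table had at least 6 counts in at least 3 libraries. Reads carry no molecular identifiers. Gene models came from GENCODE M21 and promoter windows from RefSeq.

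Counts were analysed in R 4.3.3 with edgeR 4.0.16. filterByExpr (minimum count 10, minimum total count 15) left 31085 genes, TMM factors were computed, and all 4 groups were fitted in 1 quasi-likelihood model with a Benjamini-Hochberg adjusted p under 0.1 as the threshold. The common dispersion was 0.16. For single values, log2(CPM + 1) was permuted exactly over the 70 assignments of libraries, two-sided. The code was also run on simulated counts with differences set in advance, and that outcome is not used here. Libraries are pools of mice, so p-values measure the spread between pools.

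The 10 genes and the gene lists were chosen with earlier results of these data known. Named besides them were Yap1 and Wwtr1, per list and comparison the called genes (up to 4 of smallest p) or otherwise up to 2 of smallest p averaging 10 CPM or more, and per gene the 3 most correlated genes averaging 10 CPM or more.

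Alternatives were DESeq2 1.42.0, RLE factors, TMM factors from genes averaging 10 CPM or more, dropping the filter on low counts, keeping genes above 1 CPM in at least 4 libraries, an adjusted p under 0.05, only the groups compared, a replicate block, limma-voom (limma 3.58.1) with sample quality weights, the share of counts on 1569 chemoreceptor genes as a covariate, and each library left out in turn. Leaving out the 4 libraries numbered 1 was chosen after seeing the data. Python 3.11.15 with numpy 2.4.6, pandas 2.3.3 and scipy 1.17.1 was used for summaries.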

Additional observations from a re-analysis of the deposited data

Results flagged for a closer look

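In 4 of 40 groups of 4 libraries, the highest library's gap to the next, over the range of CPM, exceeded Dixon's 95% critical value. The rate of about 1 in 20 groups by chance holds for independent, normally distributed values. The 10 genes share libraries, vary together and were not on a log scale here, so the count cannot be set against that rate. Fos had 409.6 CPM in YT-iKO MCAo replicate 1 (gap over range 0.947). Atf3 had 78.3 CPM in the same library (0.929). Junb had 84.0 CPM in YT-iKO sham replicate 1 (0.879), and Egr1 had 139.8 CPM in that library (0.850). All 4 were libraries with the replicate number 1, which the labels do not tie to a batch, animal or day, and the cause was not tested.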

How the results depend on the processing

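Values are log2 fold changes by edgeR unless another tool is named. In CTRL, MCAo against sham gave 0 of the 10 genes called as reported, 2 by DESeq2, 2 with TMM factors from abundant genes, 1 with the filter on CPM, 3 in a fit of only the groups compared, 3 with the replicate block, 3 by limma-voom, 4 with the receptor-gene share as covariate, and 0 to 2 with 1 library left out. In YT-iKO the counts were 0 as reported, 1 by DESeq2, 1 with factors from abundant genes, 1 with the replicate block, 2 by limma-voom, 2 with the receptor-gene share and 0 to 1 with 1 library left out. For genotype after sham, 1 was called in a fit of only the groups compared. RLE factors, no filter on low counts, an adjusted p under 0.05 and leaving out the 4 libraries numbered 1 called 0 in all 5 comparisons. Over all genes, calls for MCAo in CTRL numbered 67 as reported, 222 by DESeq2, 554 with factors from abundant genes, 121 with the filter on CPM, 623 with only the groups compared, 119 with the replicate block, 7538 by limma-voom, 811 with the receptor-gene share and 19 without the libraries numbered 1. In YT-iKO they numbered 99 as reported, 267 by DESeq2, 534 with factors from abundant genes, 17 with only the groups compared, 5626 by limma-voom, 584 with the receptor-gene share and 20 without the libraries numbered 1. Factors from abundant genes moved the median over all genes from 0.07 to 0.21 for MCAo in CTRL, from 0.11 to 0.30 for genotype after sham and from -0.02 to -0.16 for the difference of the responses. Of 540 values of the 10 genes under the alternatives other than leaving out 1 library, 490 kept their direction and side of the threshold, 26 newly passed it and 24 turned sign, none of which had been called.

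Those that turned sign follow, and the cause was not tested. For MCAo in CTRL, limma-voom gave -0.37 for Jun, -0.55 for Egr1 and -0.026 for Atf3, and without the libraries numbered 1 Jun was -0.24 and Egr1 -0.076. For MCAo in YT-iKO, limma-voom gave -0.25 for Klf2, -0.28 for Klf6, -0.23 for Klf10 and -0.19 for Jun, the receptor-gene share gave -0.0077 for Klf2 and -0.075 for Klf6, a fit of only the groups compared gave -9.8e-04 for Klf6, and without the libraries numbered 1 Egr1 was 0.16. For genotype after sham, Klf4 was -3.8e-04 without the libraries numbered 1, and Klf10 was 0.094 with factors from abundant genes, 0.028 by limma-voom and 0.086 with the receptor-gene share. For genotype after MCAo, Klf2 was -0.0036 without the libraries numbered 1. For the difference of the responses, limma-voom gave 0.054 for Junb and 0.018 for Egr1, and Egr1 was 0.23 without the libraries numbered 1.

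Leaving out 1 library at a time turned the sign of 50 of 800 values, with these ranges. For MCAo in CTRL they were -0.37 to 0.47 for Egr1 and -0.20 to 0.61 for Jun. For MCAo in YT-iKO they were -0.79 to 0.66 for Egr1, -0.0073 to 0.72 for Jun, -0.24 to 0.35 for Klf2, -0.49 to 0.10 for Klf4 and -0.24 to 0.27 for Klf6. For genotype after sham they were -0.18 to 0.11 for Klf10 and -0.027 to 0.22 for Klf4. For genotype after MCAo they were -0.22 to 1.15 for Atf3, -0.76 to 1.24 for Fos, -0.35 to 1.49 for Fosb, -0.035 to 1.03 for Jun, -0.18 to 0.64 for Junb, -0.42 to 0.10 for Klf10, -0.22 to 0.34 for Klf2, -0.053 to 0.54 for Klf4 and -0.095 to 0.42 for Klf6. For the difference of the responses they were -0.67 to 0.71 for Atf3, -0.96 to 0.49 for Egr1, -1.78 to 0.22 for Fos, -1.28 to 0.57 for Fosb, -0.37 to 0.69 for Jun, -0.67 to 0.15 for Junb, -0.38 to 0.15 for Klf10, -0.072 to 0.51 for Klf2 and -0.11 to 0.49 for Klf4.

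Over the 1000 genes most variable within groups, 17 of 24 pairs of libraries with the same replicate number had correlated deviations above 0.1 (median 0.259, against -0.13 for 72 other pairs), and 9 of 16 libraries correlated best with one of their own number. The labels do not say what the number marks and not every pair was above 0.1, so the reported fit and the permutation tests left the number out, although most same-numbered libraries deviated together. The replicate block called 3 of the 10 genes for MCAo in CTRL, 1 in YT-iKO and 0 elsewhere, and turned Egr1 for MCAo in CTRL to -0.022, Klf4 for genotype after sham to -0.0016 and Klf10 for the difference of the responses to 0.0041.

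Each of the 10 genes had at least 114 counts in every library, so counting error is small beside the spread between pools, which the number of pools limits.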
